A study of Mus musculus with 4 samples.

Results

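Transcription of Ell, Ell2, Ell3, Cstf1, Cstf2, Cstf3, Pcf11 and Clp1 was followed in splenic B cells together with the secreted share of Ighm transcripts. These 8 genes encode elongation and 3' end cleavage factors linked to the secreted form of IgM. They were taken by name from the 41342 named genes of the count table, and all of them were found. RNA came from CD43-depleted splenocytes of the 129 strain, males aged 8 to 12 weeks according to the legends. The ΔleftPAL mice lacked hs3a, hs1,2 and the intervening repeats of the left arm of the palindrome in the 3' regulatory region of the heavy-chain locus. In the ΔIRIS mice, hs1,2 and an inverted hs3a stood in place of that same stretch. No enhancer was lost there, whereas the left intervening repeats were. Both alleles had been made by gene targeting in E14 embryonic stem cells followed by cre-deletion of the selection cassette, and the mice were homozygous. Each genotype gave 1 resting library, from freshly purified cells, and 1 LPS library, from a culture of 48 h in lipopolysaccharide at 5 μg/ml, which activates B cells through Toll-like receptor signalling. No wt library was analysed here. The sample descriptions give pools of B cells from 4 animals, whereas the methods describe the pooling in other terms, so that the number of mice per library is not certain. With 1 library per group, no difference below has a replicate check, and the 2 genotypes were not treated as replicates of each other.

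A resting B cell makes mostly membrane IgM, and an activated B cell turns to secreted IgM from the same gene. The choice lies at the 3' end of the Ighm transcript. Cleavage at the proximal poly(A) site after the fourth constant domain gives the secreted form, whereas splicing from within that last domain exon to the membrane exons, with cleavage at the distal site, gives the membrane form. ELL proteins keep RNA polymerase II moving, and ELL2 is known from plasma cells as a factor that favours the secretory poly(A) site. The cleavage stimulation factor CstF binds the GU-rich element downstream of a poly(A) signal, and its RNA-binding subunit, the product of Cstf2, has long been tied to secretory site use in activated B cells. PCF11 and CLP1 form cleavage factor II, which takes part in cleavage and in the release of the polymerase.

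The forms differ only after a common stretch of 1305 bases, and their sequences are shown because the secreted share rests on this difference. They were read from the GENCODE release M21 transcripts (GRCm38, minus strand of chromosome 12). The last 30 bases that both forms share are in lower case, and the coding bases of each form's own tail up to the stop codon are in capitals.
Secreted tail: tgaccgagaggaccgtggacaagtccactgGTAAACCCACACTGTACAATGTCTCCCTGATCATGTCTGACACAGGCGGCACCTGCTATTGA
Membrane tail: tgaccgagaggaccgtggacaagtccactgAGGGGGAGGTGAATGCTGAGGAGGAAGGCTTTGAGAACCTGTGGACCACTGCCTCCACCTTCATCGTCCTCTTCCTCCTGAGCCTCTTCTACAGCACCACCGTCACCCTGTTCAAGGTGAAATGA
Secretory poly(A) signal: ataaaaattagaAATAAAaaaaatccattc
The secreted tail has 62 coding bases of its own and runs without a break in the genome, at chr12:113420867-113420958 together with the shared bases. The membrane tail has 125 coding bases, which lie in exons that begin after 1860 intervening bases, the first at chr12:113418953-113419068. In the secretory signal the capitals mark the AATAAA hexamer, at chr12:113420761-113420766, which ends 20 bases before the annotated end of the transcript and is the only AATAAA in the secreted transcript.

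The named genes summed to between 23615496 and 29776108 fragment counts per library. Counts were divided by TMM effective library sizes and are given as CPM, the usual per-library scale, and the floor of 3 counts corresponded to between 0.102 and 0.123 CPM. The ratios below carry 95% Clopper-Pearson intervals, which reflect counting error alone because reads copied by PCR do not stand for separate molecules. The B cell markers Cd79a, Cd79b, Ms4a1, Pax5 and Cd22 were present in every library, summing to 3162 and 2642 CPM at rest and to 1863 and 2024 CPM after LPS in the ΔleftPAL and ΔIRIS libraries, respectively. The 5 erythroid markers summed to 37666 and 26450 CPM at rest and to 53.9 and 114 CPM after LPS. The 6 myeloid markers went from 310 and 415 CPM to 8.31 and 17.5 CPM with S100a8 and S100a9 at 0 in each LPS library, and the 7 T and NK cell markers from 21.1 and 25.9 CPM to 0.260 and 0.171 CPM with 3 and 4 of them at 0, Cd3e and Cd3d among them. Itgam, a myeloid marker, did not follow the others in ΔIRIS cells, where it went from 304 to 450 counts with LPS, 15.4 CPM of the summed 17.5. The summed levels of these markers of other cells moved together with every LPS comparison reported here, and their part in those results was not tested. In such bulk RNA, fewer cells of a type and less RNA per cell cannot be told apart.

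The secreted form took a minority of the Ighm transcripts at rest and most of them after LPS. In the kallisto estimated counts it made up 23.8% (95% binomial interval 23.5 to 24.0) in resting and 84.5% (84.3 to 84.6) in LPS-activated ΔleftPAL cells. In ΔIRIS cells the share was 24.0% (23.8 to 24.3) at rest and 76.8% (76.65 to 76.99) after LPS. The resting libraries therefore lay within 0.293 percentage points of each other, while the LPS-activated ΔIRIS and ΔleftPAL libraries were apart by -7.64 points. Reads in the common exons are split between the forms by the kallisto model, so that the true uncertainty is wider than these exact binomial intervals, which were taken on the rounded estimated counts. Total RNA can also hold unspliced Ighm transcripts, which carry the bases of the secreted tail, and their part in the share was not tested. In TPM, which corrects for transcript length, the shares were 26.5% and 86.3% in ΔleftPAL and 26.8% and 79.3% in ΔIRIS cells.

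The forms moved apart in amount as well as in share. In ΔleftPAL cells the secreted form went from 20825 to 268124 estimated counts, 12.7-fold higher after scaling, and the membrane form from 66846 to 49331, 1.38-fold lower. In ΔIRIS cells the secreted form went from 22742 to 182672 estimated counts, or 8.90-fold higher, and the membrane form from 71832 to 55108, or 1.18-fold lower. Between the LPS libraries the secreted form was 1.52-fold lower in ΔIRIS cells and the membrane form 1.08-fold higher. In TPM the membrane form was instead nearly level, at 1288 in ΔleftPAL and 1280.4 TPM in ΔIRIS cells, while the secreted form was at 8110 and 4920.

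**Figure D1:**
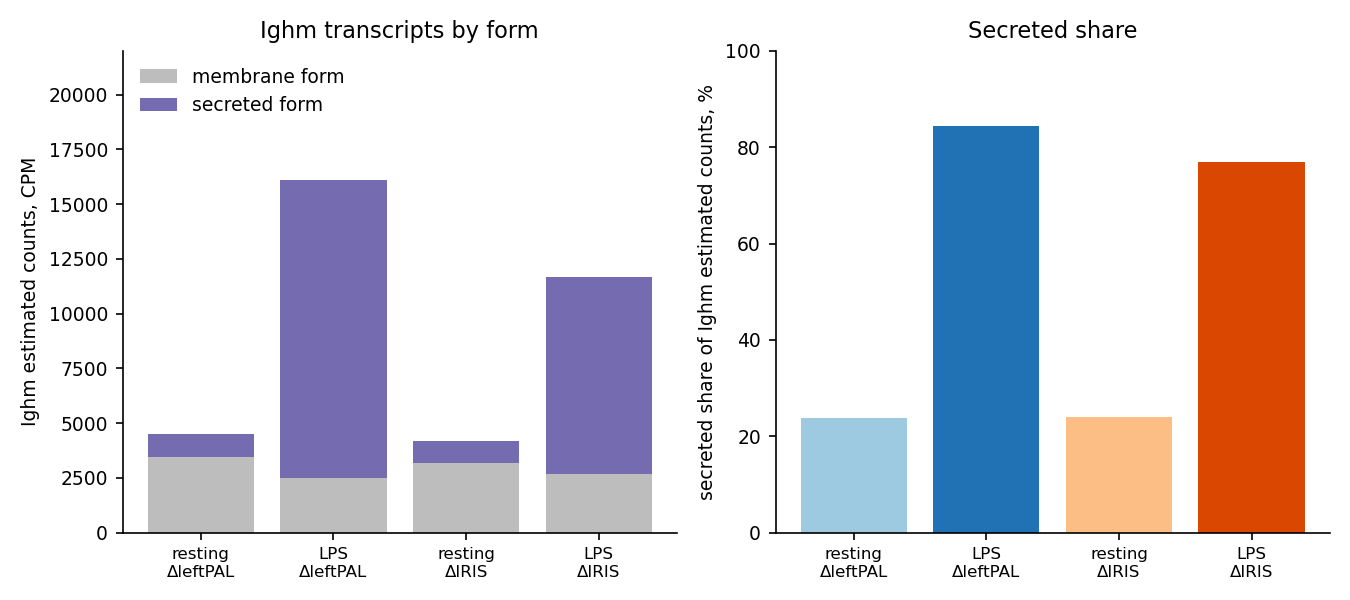
Ighm transcripts by form in the 4 libraries. Left, kallisto estimated counts of the membrane form (grey) and the secreted form (purple) in CPM, stacked; right, the secreted share of these counts in percent. The share was 23.8% and 24.0% in the resting and 84.5% and 76.8% in the LPS-activated ΔleftPAL and ΔIRIS libraries.

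Among the ELL genes the 3 members went 3 ways on LPS: Ell2 was several-fold higher, Ell3 several-fold lower and Ell nearly level. Ell2 (ENSMUSG00000001542), on the plus strand of chromosome 13 from 75707484 to 75772356 (mm10), has 12 exons and a single transcript in the deposited tables. It had 740 counts (30.3 CPM) in resting and 4218 counts (157 CPM) in LPS-activated ΔleftPAL cells. In ΔIRIS cells it had 1109 counts (38.1 CPM) at rest and 2983 counts (102 CPM) after LPS. Both LPS libraries lay above both resting libraries. The fold change on LPS was 5.17 in ΔleftPAL cells (log2 ratio 2.37, interval 2.26 to 2.48) and 2.67 in ΔIRIS cells (log2 ratio 1.42, interval 1.32 to 1.52), a difference of -0.95 between the responses.

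Ell3 (ENSMUSG00000027246), the smallest of the family, lies on the minus strand of chromosome 2 from 121439010 to 121444278. It had 71 counts (2.91 CPM) at rest and 8 counts (0.297 CPM) after LPS in ΔleftPAL cells. In ΔIRIS cells the counts were 76 (2.61 CPM) at rest and 10 (0.341 CPM) after LPS. These gene counts were only 4.76 to 7.75% of the kallisto estimated counts, whereas those of the other 7 members were 86.0 to 101% of them. In the authors' gene model 1436 of the 2190 exonic bases of Ell3 (65.6%) are also exonic in Serinc4 on the same strand, and the stated counting options do not include the counting of fragments shared between genes. The part of this overlap in the low counts was not tested. In the estimated counts Ell3 went from 1152 to 168 with LPS in ΔleftPAL and from 1101 to 129 in ΔIRIS cells, of which the transcript starting at 121442601 took between 72.1 and 91.0%. Both tables put both LPS libraries under both resting libraries. The log2 ratio on LPS was -3.29 (interval -4.56 to -2.24) in ΔleftPAL and -2.94 (interval -4.05 to -1.98) in ΔIRIS cells in the gene counts, and -2.80 and -2.95 in the estimated counts.

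Ell (ENSMUSG00000070002, chromosome 8, plus strand, 70539675 to 70592858), the founding member of the family, had 317 counts (13.0 CPM) at rest and 296 counts (10.99 CPM) after LPS in ΔleftPAL cells. It had 362 and 343 counts (12.5 and 11.7 CPM) in ΔIRIS cells. The 4 libraries differed little, with a log2 ratio on LPS of -0.24 (interval -0.47 to -0.01) and -0.09 (interval -0.31 to 0.13), respectively. The second of these was not detectable at this depth, and with kallisto estimated counts it turned to 0.05.

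The promoters of Ell2 and Ell3, the members with the largest changes on LPS, are shown as the 250 bases before the RefSeq start (GRCm38.p6), with every CCAAT in capitals.
Ell2, chr13:75707234-75707483, plus strand: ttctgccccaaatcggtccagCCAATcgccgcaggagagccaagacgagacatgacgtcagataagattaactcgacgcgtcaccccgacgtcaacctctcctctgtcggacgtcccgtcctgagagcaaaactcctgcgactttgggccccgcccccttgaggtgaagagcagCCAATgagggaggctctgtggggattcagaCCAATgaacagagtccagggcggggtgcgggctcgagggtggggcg
Ell3, chr2:121442602-121442851, minus strand: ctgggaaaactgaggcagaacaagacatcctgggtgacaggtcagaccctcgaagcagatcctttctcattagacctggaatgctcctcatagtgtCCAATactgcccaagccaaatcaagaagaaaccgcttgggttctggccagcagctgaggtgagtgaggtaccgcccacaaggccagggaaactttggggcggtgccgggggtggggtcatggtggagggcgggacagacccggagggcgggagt
CCAAT, the letters bound by the factor NF-Y, was searched on both strands together with CACGTG, TGACGTGG and 3 motifs with 2 free bases in the middle, namely GAAA before GAAA, GGAA before GAAA and GGGA before TTCC. The Ell2 window held CCAAT 3 times and the Ell3 window once, all on the strand shown, and neither held another of these motifs. Of 32851 promoter windows of this length, 33.8% held CCAAT, 6.02% CACGTG, 0.563% TGACGTGG and 2.98%, 2.30% and 1.21% the motifs with free bases, in the order given. Of the 8 members, all of which had a window, Pcf11 held CCAAT 3 times, Cstf3 held it 2 times and Cstf1 held CACGTG once, while those of Ell, Cstf2 and Clp1 held none of these letters.

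In the gene counts the 3 genes of the cleavage stimulation factor were all higher after LPS, with smaller log2 ratios than Ell2. In ΔIRIS cells, however, the intervals of Cstf1 and Cstf2 overlapped that of Ell2 (1.32 to 1.52). Cstf2 (ENSMUSG00000031256, chromosome X, plus strand, 134059187 to 134086819) encodes the subunit that touches the RNA. In ΔleftPAL cells it went from 1273 to 2745 counts (52.1 to 102 CPM) with LPS, and in ΔIRIS cells from 1457 to 3522 counts (50.1 to 120 CPM). The resting levels were close and both LPS levels lay above them, with a log2 ratio of 0.97 (interval 0.87 to 1.06) in ΔleftPAL and of 1.26 (interval 1.17 to 1.35) in ΔIRIS cells. Cstf1 (ENSMUSG00000027498, chromosome 2, plus strand, 172370681 to 172382448), the gene of the WD-repeat subunit, had 591 and 1095 counts (24.2 and 40.6 CPM) in ΔleftPAL and 589 and 1396 counts (20.3 and 47.6 CPM) in ΔIRIS cells. Its change was 1.68-fold (log2 ratio 0.75, interval 0.60 to 0.90) and 2.35-fold (log2 ratio 1.23, interval 1.09 to 1.37), respectively.

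Cstf3 (ENSMUSG00000027176, chromosome 2, plus strand, 104590523 to 104665429) encodes the scaffold subunit that bridges the other two. Its counts went from 487 to 757 (19.9 to 28.1 CPM) in ΔleftPAL and from 563 to 918 (19.4 to 31.3 CPM) in ΔIRIS cells. The difference was the smallest of the 3, with log2 ratios of 0.49 (interval 0.33 to 0.66) and 0.69 (interval 0.54 to 0.85). Its transcripts differed in this. The full-length transcript went from 296 to 590 estimated counts in ΔleftPAL and from 350 to 793 in ΔIRIS cells, log2 ratios of 0.97 and 1.33. A transcript that ends early, at 104611406 in the first part of the gene, went from 131 to 119 and from 145 to 80.9 estimated counts, log2 ratios of -0.15 and -0.69. The full-length share was 60.6% (interval 56.2 to 65.0) and 61.0% (56.8 to 65.0) at rest, and 76.5% (73.4 to 79.5) and 86.7% (84.3 to 88.8) after LPS. In TPM the same shares were 32.6% and 33.7% at rest and 51.1% and 66.8% after LPS, lower throughout and in the same order. Summed over all its transcripts in TPM, where short transcript models weigh more, Cstf3 was no higher after LPS, with 17.7 and 17.2 TPM in ΔleftPAL and 16.7 and 15.8 TPM in ΔIRIS cells.

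The genes of cleavage factor II went opposite ways, Pcf11 being lower and Clp1 higher after LPS in both genotypes. Pcf11 (ENSMUSG00000041328, chromosome 7, minus strand, 92643712 to 92669933), whose product binds the C-terminal domain of RNA polymerase II, went from 4422 to 3075 counts (181 to 114 CPM) with LPS in ΔleftPAL cells. In ΔIRIS cells it went from 8400 to 3561 counts (289 to 121 CPM). The LPS libraries were close to each other and the resting ones were not, so that the change was 1.59-fold down in ΔleftPAL (log2 ratio -0.67, interval -0.73 to -0.60) and 2.38-fold down in ΔIRIS cells (log2 ratio -1.25, interval -1.31 to -1.19). The transcript with the later start, at 92663537, took 38.3% of the Pcf11 estimated counts in resting ΔIRIS cells against 24.0 to 29.7% elsewhere. Clp1 (ENSMUSG00000027079, chromosome 2, minus strand, 84722104 to 84727350), the gene of an RNA kinase, had 527 and 924 counts (21.6 and 34.3 CPM) in ΔleftPAL cells and 868 and 1216 counts (29.9 and 41.5 CPM) in ΔIRIS cells. Its log2 ratios on LPS were 0.67 (interval 0.51 to 0.83) and 0.47 (interval 0.35 to 0.60).

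**Figure D2:**
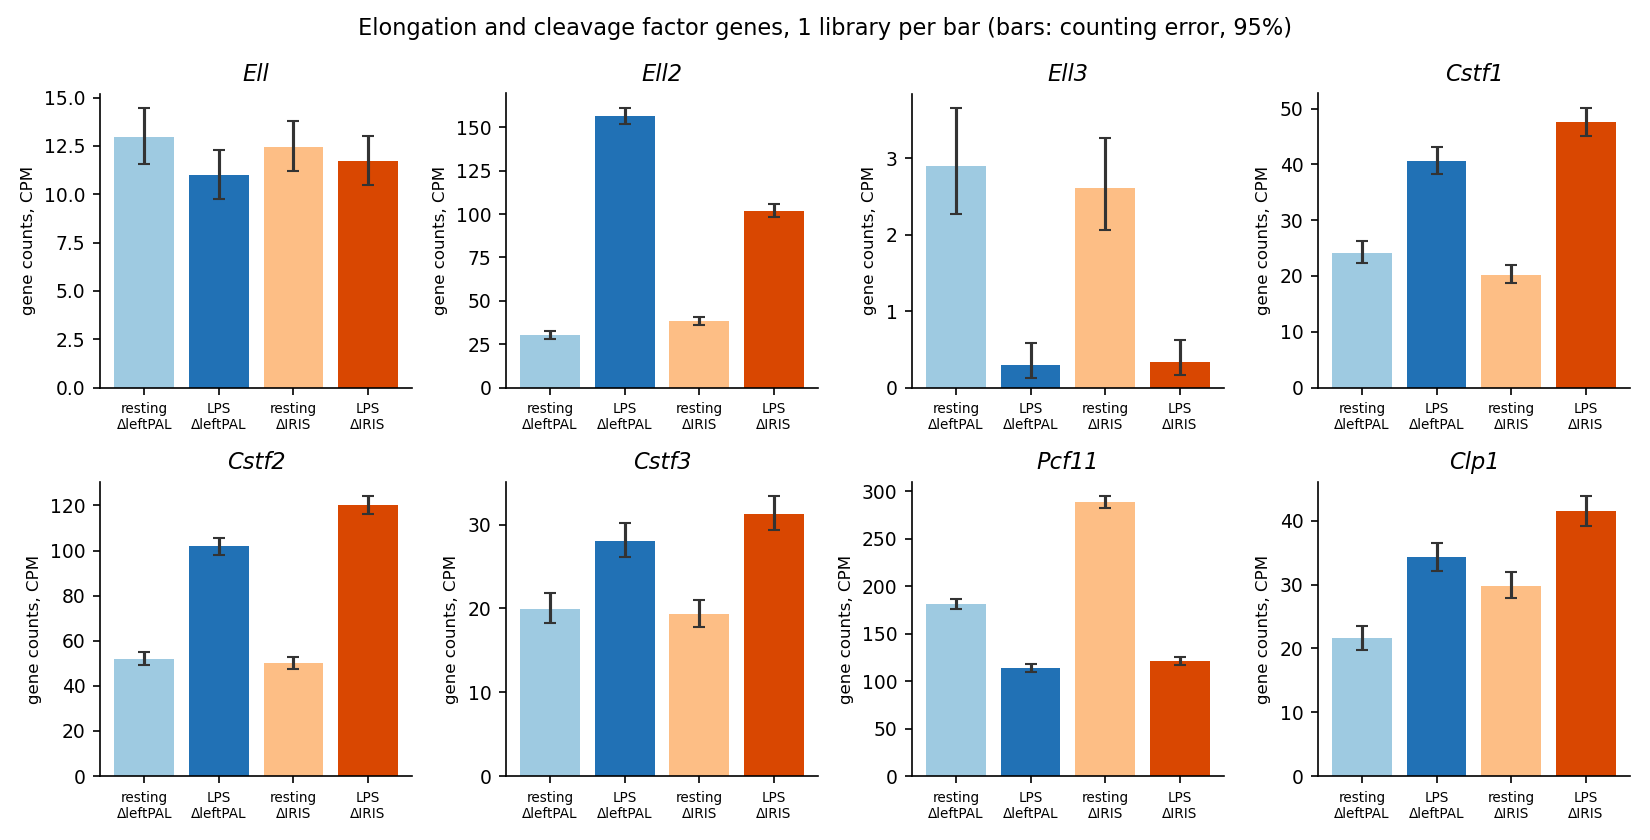
Gene counts of the 8 members in CPM, 1 library per bar, with exact 95% Poisson intervals for counting error as error bars. Each panel has its own axis from 0. Ell2 stood at 157 and 102 CPM after LPS against 30.3 and 38.1 CPM at rest, and Pcf11 was highest in resting ΔIRIS cells at 289 CPM.

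**Figure D3:**
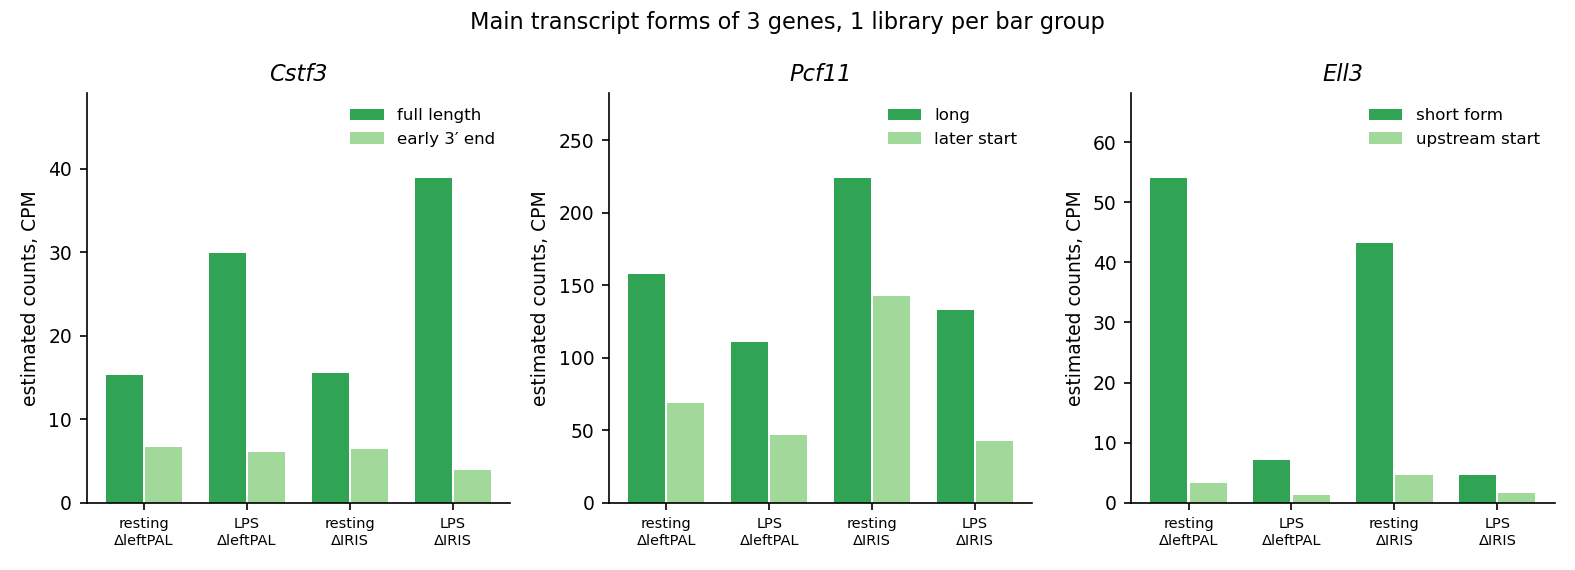
Kallisto estimated counts in CPM of the main transcript forms of Cstf3, Pcf11 and Ell3, 1 library per pair of bars. The full-length Cstf3 transcript was higher in both LPS libraries while the one with the early 3' end was not, and the long Pcf11 transcript exceeded the one with the later start in every library.

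LPS activation moved much of the transcriptome, so the members were set beside all genes whose mean count reached 50. A gene was called when its CPM plus 0.5 differed at least 2-fold. Of the 7 members past that minimum, 1 (Ell2) was called higher and none lower in ΔleftPAL cells, where 20.1% of 11286 genes were called higher and 15.5% lower. In ΔIRIS cells 3 (Ell2, Cstf1 and Cstf2) were called higher and 1 (Pcf11) lower, with 21.6% and 17.3% of all genes. Ell3, at a mean of 41.25 counts, was under the minimum and was over 2-fold lower on the same scale in both genotypes. The median log2 ratio of the 7 members was 0.66 in ΔleftPAL and 0.68 in ΔIRIS cells, and that of all genes was 0.12 and 0.13. Cstf2 missed the 2-fold line in ΔleftPAL cells, at 1.96-fold without the added 0.5 CPM, and passed it in the estimated counts, at 2.07-fold. In TPM neither Cstf1 nor Cstf2 passed the 2-fold line in ΔIRIS cells, with log2 ratios of 0.998 and 0.90, which left Ell2 as the only member called higher there. Pcf11 in turn passed it in TPM in ΔleftPAL cells as well, with a log2 ratio of -1.10.

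**Figure D4:**
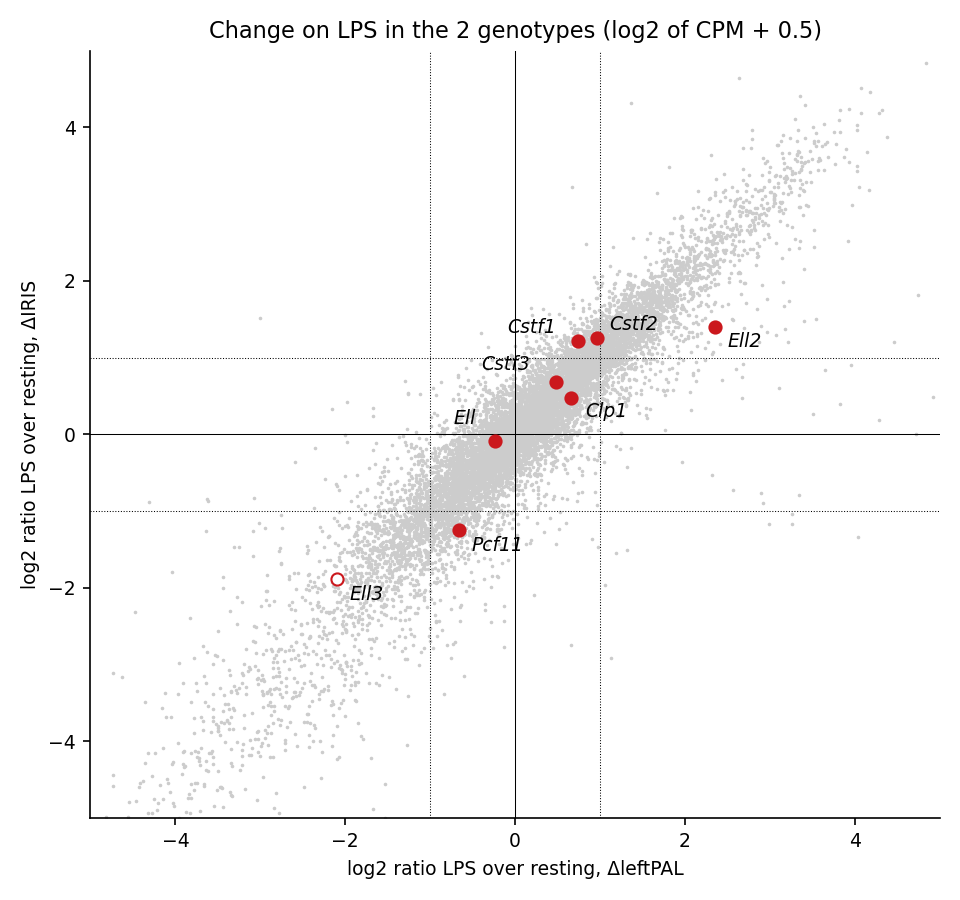
Log2 ratio of LPS over resting (CPM plus 0.5) in ΔleftPAL cells against that in ΔIRIS cells. Grey points are genes whose mean count reached 50 (110 of 11286 lie outside the axes), red points the members, the open circle Ell3, and dotted lines the 2-fold limits. Ell2 is past the 2-fold limit in both genotypes, and Cstf1, Cstf2 and Pcf11 in ΔIRIS cells only.

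Per length, Ell2 rose and Ell3 fell in the order of the members on LPS. Summed over its transcripts, Ell2 stood at 12.7 TPM in resting ΔleftPAL cells, seventh of the 8, and at 48.6 TPM after LPS, the highest of all. In ΔIRIS cells it was sixth at rest, at 14.7 TPM, and second after LPS, at 30.9 TPM, behind Cstf2 at 37.0 TPM. Pcf11 led both resting libraries, at 56.9 and 84.5 TPM, followed by Ell3 at 47.6 and 33.9 TPM. This rank of Ell3 rests on the kallisto table, since in the gene counts, which are not per length, it was the lowest of the 8 at 2.91 and 2.61 CPM. After LPS Ell3 was among the last 2 with Ell, at 4.52 and 3.05 TPM against 4.04 and 4.14 TPM. Neighbours such as Cstf2, Cstf3, Clp1, Cstf1 and Ell2 at rest, all between 12.7 and 21.1 TPM, had no replicates by which to tell them apart.

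Between the genotypes no member reached a 2-fold difference, at rest or after LPS. Over all genes, 1.83% were called higher and 1.02% lower in resting ΔIRIS than in resting ΔleftPAL cells, and 0.567% higher and 1.41% lower after LPS. The largest differences among the members were those of Pcf11 at rest, 1.60-fold higher in ΔIRIS cells (log2 ratio 0.67, interval 0.62 to 0.73), and of Ell2 after LPS, 1.54-fold lower (log2 ratio -0.62, interval -0.69 to -0.55). For Pcf11, 5.12% of all genes lay as high or higher in that comparison. For Ell2, 4.02% of all genes lay as low or lower. Clp1 was higher in ΔIRIS cells in both conditions, by 0.47 (interval 0.31 to 0.63) at rest and 0.27 (interval 0.15 to 0.40) after LPS on the log2 scale. Each CstF gene was slightly higher in LPS-activated ΔIRIS than ΔleftPAL cells, by 0.16 to 0.24 on the log2 scale, but in TPM Cstf2 and Cstf3 gave -0.01 and -0.13. In the gene counts after LPS, Ell2 was lower in ΔIRIS than ΔleftPAL cells, and the CstF and cleavage factor II genes were not. Whether any of these differences bears on the lower secreted share in that ΔIRIS library was not tested. These intervals hold counting error alone, and with 1 pool per group the pool and the genotype cannot be told apart.

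Of 18 other cleavage and polyadenylation genes, all past the count minimum and compared, like the lists after them, as CPM plus 0.5, 2 were called higher and none lower on LPS in ΔleftPAL cells, and 4 higher and none lower in ΔIRIS cells, with medians of 0.35 and 0.55. The shares of all genes called higher were 20.1% and 21.6%, close to or above the shares in this list, and 15.5% and 17.3% were called lower. Called in both were Nudt21, the small subunit of cleavage factor I, at 2.54- and 2.84-fold, and Cpsf4, a zinc finger subunit of the cleavage and polyadenylation factor CPSF, at 2.17- and 2.05-fold. Cstf2t, the autosomal paralogue of Cstf2, named after its values were seen, had 1624 and 1785 counts in ΔleftPAL and 2162 and 2077 in ΔIRIS cells, with log2 ratios on LPS of -0.00 and -0.07.

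Of 29 further elongation genes, 3 were called higher and 2 lower on LPS in ΔleftPAL, and 5 higher and 3 lower in ΔIRIS cells, counts that do not exceed the shares of all genes, 20.1% and 15.5% in ΔleftPAL and 21.6% and 17.3% in ΔIRIS cells. Eaf2, which encodes a partner of ELL proteins, went from 198 to 1104 counts in ΔleftPAL (4.82-fold) and from 170 to 843 counts in ΔIRIS cells (4.61-fold). Nelfe, a subunit of the pausing factor NELF, was 2.70- and 2.53-fold higher. Aff1, which encodes a scaffold of the super elongation complex to which ELL proteins belong, and Aff3, a gene of the same family, were lower. Aff1 went from 3109 to 1706 counts (127 to 63.3 CPM) in ΔleftPAL and from 6613 to 1602 (227 to 54.7 CPM) in ΔIRIS cells, and Aff3 gave log2 ratios of -1.26 and -1.13. Aff4, the gene of the other scaffold of that complex, named after its values were seen, gave -0.61 and -1.11. Like Pcf11, Aff1 was higher in resting ΔIRIS than in resting ΔleftPAL cells, by 0.84 on the log2 scale.

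Of 11 genes of RNA-binding proteins tied to the Ighm poly(A) choice or to splicing, 5 were called higher and none lower on LPS in both genotypes, with medians of 0.94 and 0.78, where 20.1% and 21.6% of all genes were called higher and 15.5% and 17.3% lower. The remaining 6 passed the 2-fold line in neither genotype, and among them Hnrnpll, a splicing regulator named after its values were seen, gave log2 ratios of 0.74 and -0.77. The 5 were Snrpa, Ptbp1, Srsf1, U2af1 and U2af2. Snrpa, the gene of a U1 snRNP protein known to hold back the secretory site, was 2.87-fold higher in ΔleftPAL and 2.78-fold higher in ΔIRIS cells. Ptbp1, a polypyrimidine tract binding protein, gave log2 ratios of 1.26 and 1.16, and Srsf1, an SR splicing factor, was 2.05- and 2.07-fold higher. U2af1 and U2af2, the subunits of the 3' splice site factor, were 2.74- and 2.46-fold and 2.03- and 2.12-fold higher. Hnrnpf, whose product competes with CstF for RNA and which was named after its values were seen, gave log2 ratios of 0.78 and 0.68.

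Of the 7 plasma cell genes past the count minimum, 5 were called higher on LPS in ΔleftPAL and 3 in ΔIRIS cells, and none lower, against 20.1% and 21.6% of all genes higher and 15.5% and 17.3% lower. Prdm1, which encodes the repressor Blimp-1, went from 111 to 2047 counts in ΔleftPAL (15.2-fold) and from 210 to 1288 in ΔIRIS cells (5.75-fold). Xbp1, the transcription factor of the secretory programme, was 6.25- and 4.01-fold higher, and Mzb1, a chaperone of IgM assembly, 5.03- and 5.77-fold. Igj, the gene of the J chain that joins IgM into polymers, gave log2 ratios of 1.41 and 0.87. Irf4, a transcription factor of plasma cell differentiation, gave 0.68 in ΔleftPAL but -0.62 in ΔIRIS cells, and Sdc1, the gene of the plasma cell surface protein syndecan-1, gave 0.48 and -0.42. These last 3 genes were named after their values were seen. Like Ell2, Prdm1 and Xbp1 were lower in LPS-activated ΔIRIS than ΔleftPAL cells, with log2 ratios of -0.78 and -0.58, while Eaf2 gave -0.50 there and -0.44 at rest. At rest Prdm1 was higher in ΔIRIS cells, with a log2 ratio of 0.61, and so was Irf4, the only gene of the list called between the genotypes, at 1.08. The median of the 7 genes was -0.42 between the LPS libraries, and none of them was 2-fold apart there. The share of plasma cells in each culture was not measured here.

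By its pattern over the 4 libraries, Ell2 lay nearest to St8sia6, the gene of a sialyltransferase. The measure was the Euclidean distance of log2 profiles (CPM plus 0.5), each centred on its own mean, over genes other than immunoglobulin genes. St8sia6, at a distance of 0.044, had 400 and 2271 counts in ΔleftPAL and 610 and 1670 in ΔIRIS cells. It was followed by H1f0, which encodes a linker histone, at 0.20, Cpeb3, a cytoplasmic polyadenylation element binding protein, at 0.23, Ms4a6c at 0.25 and Ergic1, a protein of the early secretory pathway, at 0.25. With 4 libraries many genes can share a pattern, and no more than likeness is meant.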

How the data were processed

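The 4 libraries were made from rRNA-depleted total RNA. The authors mapped paired reads with STAR 2.4.0a to mm10 and, under the Ensembl 77 gene model, deposited raw counts of fragments for each gene name (featureCounts, subread 1.4.6-p1). They also deposited kallisto 0.42.3 estimated counts and TPM values per transcript, whose index and settings are not given in the sources used here. The row without a gene name, at most 0.0264% of counts, was left out. Over genes with at least 100 estimated counts, gene counts had a median of 0.985 to 0.988 of them, so counting was not of the antisense strand alone. This ratio does not tell counting of the sense strand from counting of both strands.

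TMM factors (edgeR 4.0.16, R 4.3.3) lay between 0.970 and 1.03. Ratios of 2 libraries have 95% Clopper-Pearson intervals (Python 3.11.15, scipy 1.17.1, numpy 2.4.6, pandas 2.3.3). They compare libraries, not conditions, and no p-value was computed. The members and lists were chosen with earlier results of these data known. Named were the members, up to 20 genes of the other lists at least 2-fold apart in the same direction in both genotypes, the 5 genes nearest to Ell2, and genes said to be named after their values were seen. Ice2 and Jchain stood under their older symbols, Narg2 and Igj, and were counted, and Ice1 was not found by that symbol. A further B cell marker, left out of the sum, is not reported here. Alternatives tried were scaling by total counts, by DESeq2 1.42.0 or by TMM without immunoglobulin genes, both kallisto tables, a prior of 5 CPM, a 1.5-fold limit and other count minimums.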

Additional observations from a re-analysis of the deposited data

Results flagged for a closer look

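Ell2 and Cstf1 differed between the genotypes in opposite directions at rest and after LPS, with intervals for counting error on either side of 0. On the log2 scale Ell2 in ΔIRIS relative to ΔleftPAL cells was at 0.33 at rest and -0.62 after LPS, a difference of -0.95. Cstf1 was at -0.26 at rest and 0.23 after LPS, a difference of 0.48. With 1 library per group these differences were not tested.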

How the results depend on the processing

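Of the 32 member log2 ratios (8 genes, 4 comparisons), 25 kept 1 sign under all 6 alternatives. The other 7 were those of Ell on LPS in ΔIRIS cells, of Ell3, Cstf2 and Cstf3 between the LPS libraries, and of Cstf3 in the remaining 3 comparisons, and none of them was a 2-fold call. Ell2 on LPS stayed between 1.89 and 2.37 in ΔleftPAL and between 1.04 and 1.48 in ΔIRIS cells. Counted over all 8 members, 1 was called higher and 1 lower on LPS in ΔleftPAL, and 3 higher and 2 lower in ΔIRIS cells. In ΔleftPAL cells estimated counts gave 2 higher, TPM gave 2 lower, a prior of 5 CPM gave 0 lower, and the 1.5-fold limit gave 4 higher and 2 lower. In ΔIRIS cells TPM gave 1 higher and the prior of 5 CPM 1 lower. Between the genotypes the 1.5-fold limit gave 1 higher at rest (Pcf11) and 1 lower after LPS (Ell2), against none at 2-fold. The shares of all genes at the 1.5-fold limit were not counted, so nothing is read from the member counts at that limit. The secreted share moved to 26.5%, 86.3%, 26.8% and 79.3% in TPM, and the other denominators hold the same 2 transcripts. Why the tables differ was not tested.

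For all genes, the prior of 5 CPM brought the number lower on LPS to 1072 in ΔleftPAL and 1296 in ΔIRIS cells, and the number in ΔIRIS against ΔleftPAL cells to 91 higher and 37 lower at rest and to 13 higher and 70 lower after LPS. A minimum mean of 200 counts gave 1148 lower on LPS in ΔleftPAL cells, 124 higher and 58 lower at rest, and 37 higher and 91 lower after LPS, and no minimum gave 179 lower at rest. Fewer genes were tested at 200 and more without a minimum. Without a minimum, 6.10% of all genes were called higher and 5.96% lower on LPS in ΔleftPAL cells. In ΔIRIS cells these shares were 6.52% and 6.79%. With total counts the median log2 ratio of all genes on LPS was 0.03 and 0.09, against 0.12 and 0.13. No paired analysis was run. The labels carry no replicate numbers and each group has 1 library. Resting and LPS libraries could have been paired by genotype, but such a fit would use the genotypes as replicates of each other, which was not done. Ell3 had the lowest gene counts of the members after LPS, at 8 and 10, against 168 and 129 estimated counts. The source of this gap was not tested.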
